A study of Homo sapiens with 3 samples.

Results

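The annexins are a family of proteins that bind phospholipid membranes when calcium rises, and 10 of their genes, *ANXA1* to *ANXA9* and *ANXA11*, were followed here in a stratified culture of human corneal epithelial cells. A gene was read from every probe set of the array that the platform annotation assigns to that gene alone. This gave 15 probe sets of 9 annexin genes, of 11963 genes and 19071 such probe sets in all. *ANXA8* had no probe set of its own, sharing its only one with another gene, and was not analysed here. The cells were the SV40-immortalized human corneal epithelial line (iHCE), an established line made with the large T antigen of the virus. For each culture cells were seeded on collagen-coated filters, first kept submerged in medium with serum, insulin, cholera toxin and EGF, and then fed from below only, with air above, so that the layer could stratify. The study deposited 3 independent replicate cultures of this single condition, called cultures 1, 2 and 3 here. Their resistances were 489, 439 and 468 Ω · cm2, and each had 1 Affymetrix oligonucleotide expression array. Every value below is an RMA value, a background-corrected and between-array normalized summary of a probe set on the log2 scale. The corneal tissue arrays with which the study compared this line were not analysed here, so no fold change between groups is given.

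Annexins have a conserved core of repeated helical segments that holds the calcium and docks onto acidic lipids such as phosphatidylserine, and a variable N-terminal tail through which each member binds its own partners, often S100 proteins or other EF-hand proteins. They are known for roles in vesicle traffic, in the resealing of torn plasma membranes and in the control of inflammation. In surface epithelia, which meet mechanical injury, annexins are among the abundant cytoplasmic calcium-binding proteins.

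Most of the annexin genes followed here were well expressed in the iHCE cultures, and *ANXA6* and *ANXA9* were at background. The background threshold of an array was set at percentile 95 of the values of 57 genes typical of unrelated tissues, and a gene had to pass it in all 3 cultures to be called. The thresholds were 7.07, 6.92 and 7.01 in cultures 1, 2 and 3. Of the 9 annexin genes, each read at its brightest probe set, 7 were above background, against 46.1% of all genes. The same 7 passed a one-sided limma test of a mean above the threshold, with adjusted p from 6.3e-11 for *ANXA2* to 2.9e-07 for *ANXA5*, against 45.2% of all genes. Of the 15 probe sets 12 were above background, against 37.6% of all single-gene probe sets. The median distance of the 9 genes from the threshold was 3.19 log2 units, and that of all genes was -0.02. *ANXA10*, over the threshold on 2 arrays, and *ANXA13*, on 0, were outside the genes followed and were not called above background. Probe sets differ in affinity, so the size of a signal does not rank the genes by transcript amount.

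**Figure D1:**
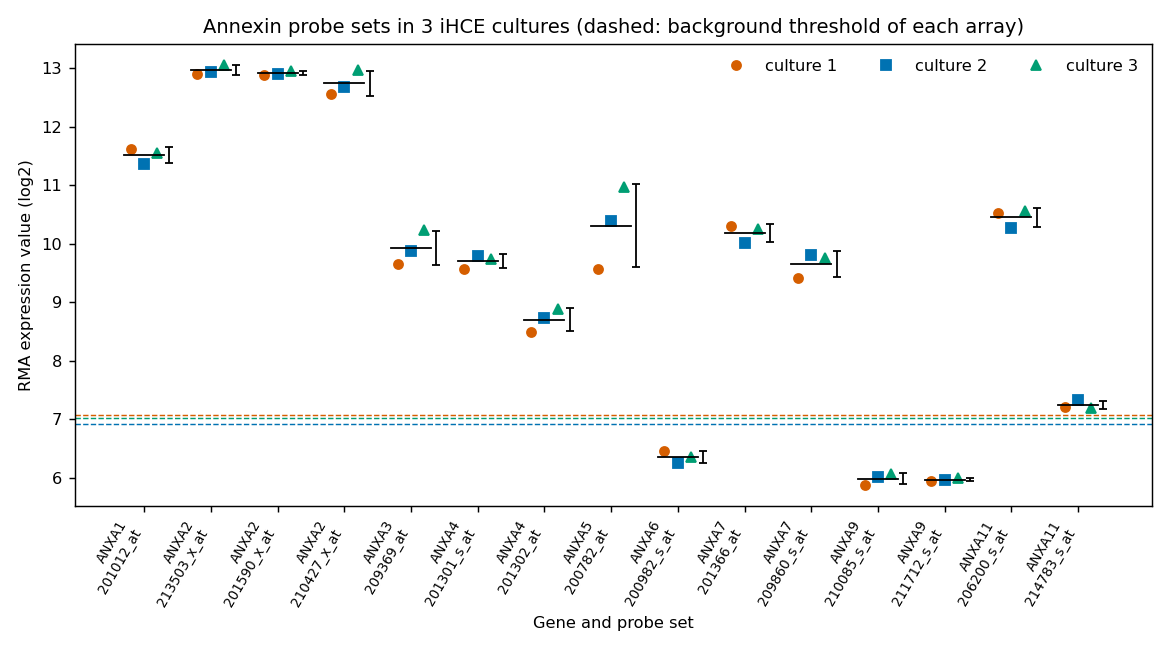
RMA expression value (log2, vertical axis) of the 15 annexin probe sets (horizontal axis, by gene) in iHCE cultures 1, 2 and 3 (circles, squares and triangles), with the mean as a black line and the SD (n = 3) as a bar. The dashed lines are the background thresholds of the arrays. The *ANXA6* and *ANXA9* probe sets lie below all 3 lines, and the points of *ANXA5* are the farthest apart, between 9.56 and 10.97.

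The promoter regions of *ANXA1*, *ANXA2*, *ANXA5* and *ANXA9* are shown because of their values among the 9 genes. *ANXA2* and *ANXA1* had the largest margins over background, *ANXA5* the widest spread between cultures and *ANXA9* the lowest margin. The sequences are 300 bases around an annotated start, from RefSeq on GRCh38.p14, printed 5′ to 3′ on the gene's strand. The *ANXA9* window lies at a start inside the annotated gene, which spans 150977306 to 150995634. The windows of *ANXA1*, *ANXA2* and *ANXA5* contain the 5′ end of their annotated genes. Capitals mark the core of the TATA box (TATAAA), the GC box (GGGCGG) and the CCAAT box, on either strand, and neighbouring GC boxes may share a base.
ANXA1 promoter, chr9:73151615-73151914, plus strand: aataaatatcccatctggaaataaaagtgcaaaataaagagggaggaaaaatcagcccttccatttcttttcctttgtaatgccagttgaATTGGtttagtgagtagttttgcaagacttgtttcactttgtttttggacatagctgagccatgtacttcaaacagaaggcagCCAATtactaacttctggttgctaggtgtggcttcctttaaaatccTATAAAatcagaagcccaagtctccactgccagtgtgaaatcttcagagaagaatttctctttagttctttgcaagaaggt
ANXA2 promoter, chr15:60397937-60398236, minus strand: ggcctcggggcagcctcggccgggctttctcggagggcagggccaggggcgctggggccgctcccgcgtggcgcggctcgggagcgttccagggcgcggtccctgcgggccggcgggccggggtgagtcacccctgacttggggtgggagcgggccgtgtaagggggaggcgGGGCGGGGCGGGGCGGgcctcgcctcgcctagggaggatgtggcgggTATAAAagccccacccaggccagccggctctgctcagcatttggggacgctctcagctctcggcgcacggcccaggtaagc
ANXA5 promoter, chr4:121696931-121697230, minus strand: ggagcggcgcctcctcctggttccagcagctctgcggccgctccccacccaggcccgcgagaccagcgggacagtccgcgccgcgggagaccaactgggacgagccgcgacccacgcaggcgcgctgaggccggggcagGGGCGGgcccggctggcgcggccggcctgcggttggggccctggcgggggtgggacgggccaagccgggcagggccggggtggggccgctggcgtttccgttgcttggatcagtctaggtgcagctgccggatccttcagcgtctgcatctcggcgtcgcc
ANXA9 promoter, chr1:150982042-150982341, plus strand: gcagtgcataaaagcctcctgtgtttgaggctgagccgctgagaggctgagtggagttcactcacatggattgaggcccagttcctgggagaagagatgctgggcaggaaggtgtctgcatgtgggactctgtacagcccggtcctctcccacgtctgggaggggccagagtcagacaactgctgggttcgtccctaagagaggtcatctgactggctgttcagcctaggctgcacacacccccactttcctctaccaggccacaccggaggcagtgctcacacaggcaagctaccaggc

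These 4 windows differ in composition. That of *ANXA1* held no CpG dinucleotide at all, as did 3.96% of all 35116 promoters, and had a GC content of 37.7%. It carried 1 TATAAA and 2 matches to CCAAT. The *ANXA2* window held 32 CpG, 3 GC boxes and 1 TATAAA, and the *ANXA5* window 36 CpG and 1 GC box without a TATAAA. The *ANXA9* window had none of the 3 motifs and 5 CpG, against a median of 14 over all promoters. All 9 annexin genes matched at least 1 promoter entry, 13 in all. TATAAA was found in 3 of these 13 windows, GGGCGG in 7 and CCAAT in 4, whereas 11.5%, 45.0% and 34.6% of all promoters held them. The gene with no CpG in its window and the gene with 32 were both above background, and these counts describe letters in a window only.

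*ANXA1* and *ANXA2* were the annexins farthest above background, and how much *ANXA2* varied between cultures depended on the probe set. *ANXA1* encodes a glucocorticoid-induced protein that dampens inflammation, acting outside the cell on formyl peptide receptors. It read 11.62, 11.36 and 11.55 in cultures 1, 2 and 3, a mean of 11.51 ± 0.13 (SD, n = 3), which lay 4.51 log2 units above the threshold (limma, adjusted p = 1.3e-10). Its range of 0.26 was wider than that of 45.2% of the genes above background. *ANXA2* encodes the partner of S100A10, with which it binds plasminogen and tissue plasminogen activator at the cell surface. Its brightest probe set read 12.90, 12.94 and 13.05 (12.96 ± 0.08), 5.96 above the threshold. The range there, 0.16, was wider than that of 21.2% of the genes above background. The other probe sets of *ANXA2* gave 12.91 ± 0.03 and 12.74 ± 0.21, with ranges of 0.07 and 0.41. All 3 probe sets placed *ANXA2* far above background and culture 3 highest. All of them are marked _x_at, a class of probe set that can bind several transcripts. The transcribed pseudogene *ANXA2P2* had an _x_at probe set at 9.84 ± 0.18, above background on 3 arrays, while those of *ANXA2P1* and *ANXA2P3* were above it on 0 arrays. How much of the *ANXA2* signal such copies share was not tested.

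*ANXA5* differed between cultures more than any other annexin gene measured. It encodes the protein that binds exposed phosphatidylserine and forms a lattice on it, which is why labelled annexin A5 is used to detect dying cells. Its single probe set read 9.56, 10.38 and 10.97 in cultures 1, 2 and 3, with a mean of 10.30 ± 0.71 (SD, n = 3). Culture 1 was the lowest and culture 3 the highest, and the range was 1.41 log2 units. This was the rank 15 range among the 5515 genes above background, and wider than 99.7% of them. Cultures 2 and 3, whose arrays were the most alike of the 3 pairs, still differed by 0.59 for *ANXA5*, a difference reached by 54 of the 5515 genes (0.979%). Even its lowest value was well over the threshold of that array (7.07). With 1 array per culture, a difference in culture and a difference in the array cannot be told apart, and no test between cultures was possible.

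**Figure D2:**
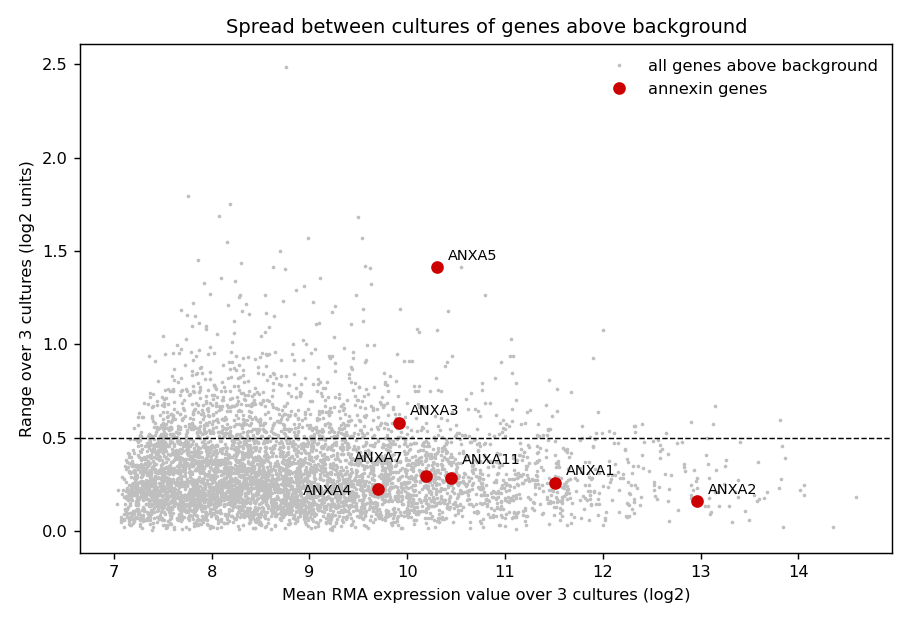
Range over the 3 iHCE cultures (log2 units, vertical axis) against the mean RMA value (log2, horizontal axis) for the 5515 genes above background (grey points) and the 7 annexin genes among them (red points). The dashed line marks a range of 0.5. *ANXA5*, at 1.41, lies above most of the grey points (rank 15 of the ranges), *ANXA3* lies just over the line and the other 5 lie below it.

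The profile of *ANXA5* over the 3 cultures was set beside those of the other genes above background, each centred on its own mean. The measure was the root mean square difference, which depends on the size of the differences as well as their direction. The smallest values were those of *G0S2* (0.03 log2 units), *PAWR* (0.11) and *R3HDM2* (0.13), of 5514 genes searched. *G0S2*, whose product inhibits a triglyceride lipase, read 8.41, 9.16 and 9.76 in cultures 1, 2 and 3. *PAWR*, which encodes a proapoptotic protein, read 8.05, 8.68 and 9.20, and *R3HDM2* read 7.54, 8.51 and 8.79. All 3 were lowest in culture 1 and highest in culture 3, like *ANXA5*. So were *ANXA2* and *ANXA3*, but their ranges of 0.16 and 0.58 were too narrow to come close by this measure. A likeness over 3 points, found by a search among 5514 genes, is a description only.

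**Figure D3:**
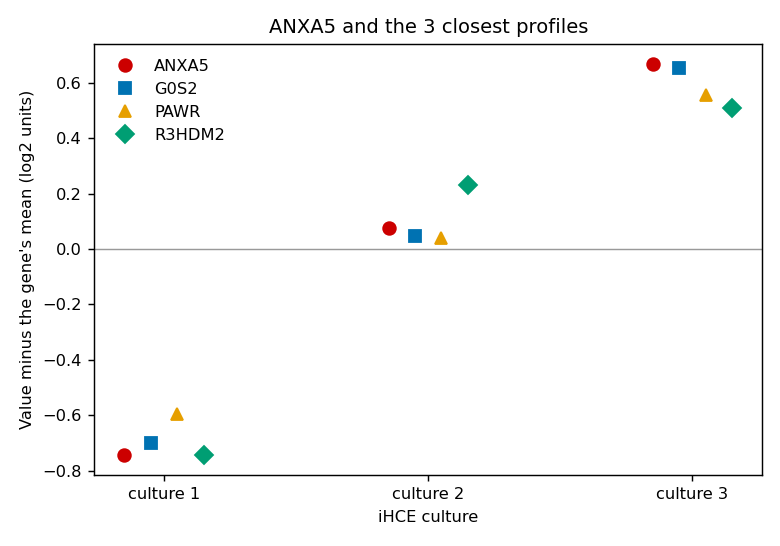
Value minus the gene's mean (log2 units, vertical axis) of *ANXA5* and the 3 genes with the closest profile, *G0S2*, *PAWR* and *R3HDM2*, in each iHCE culture (horizontal axis, 1 point for each gene and culture). *ANXA5* lies at -0.74 in culture 1 and at 0.67 in culture 3.

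*ANXA3* was the other annexin gene above background with a range of at least 0.5 log2 units. These 2 of 7 compare with 16.9% of all genes above background. *ANXA3* encodes an annexin known from neutrophils, where it promotes the clustering of granules. It read 9.65, 9.88 and 10.23 in cultures 1, 2 and 3 (9.92 ± 0.29, SD, n = 3), 2.92 above the threshold (limma, adjusted p = 1.0e-08). Culture 1 was again the lowest and culture 3 the highest. The range of 0.58 was wider than that of 89.4% of the genes above background. *ANXA3* is among the genes the study listed for their values on these arrays, so its level is not independent evidence.

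*ANXA4*, *ANXA7* and *ANXA11* were each measured by a pair of probe sets, and these did not always tell the same story. *ANXA4*, an annexin of secretory epithelia that restrains calcium-activated chloride currents, read 9.57, 9.79 and 9.74 at its brighter probe set (9.70 ± 0.12, SD, n = 3) and 8.48, 8.74 and 8.88 at the other (8.70 ± 0.20). Both placed culture 1 lowest. *ANXA7*, or synexin, which promotes the fusion of secretory granules, read 10.31, 10.01 and 10.24 at its brighter probe set (10.19 ± 0.15). The other read 9.40, 9.81 and 9.75 (9.66 ± 0.22). Culture 1 minus the mean of cultures 2 and 3 was 0.18 at the brighter and -0.38 at the other, so the *ANXA7* probe sets disagreed on which side culture 1 lay, and no difference between cultures is stated for this gene.

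*ANXA11*, which tethers RNA granules to lysosomes and takes part in cytokinesis, gave the widest disagreement in level. Its brighter probe set read 10.53, 10.27 and 10.55 in cultures 1, 2 and 3 (10.45 ± 0.16, SD, n = 3), 3.45 above the threshold (limma, adjusted p = 5.5e-10). The other read 7.20, 7.32 and 7.20 (7.24 ± 0.07), barely over background on 3 arrays, and did not pass the limma test (adjusted p = 0.053, over all single-gene probe sets). It fell below background with the highest value of the panel or with its median plus 3 scaled MADs as the threshold. The call of *ANXA11* therefore rests on the brighter probe set.

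*ANXA6* and *ANXA9* were not above background on any array. *ANXA6*, the member with a duplicated core, linked to cholesterol traffic and endocytosis, read 6.46, 6.26 and 6.36 in cultures 1, 2 and 3, with a mean of 6.36 ± 0.10 (SD, n = 3) and a margin of -0.64. *ANXA9*, whose calcium-binding sites are largely substituted, read 5.88, 6.01 and 6.06 at the brighter of its probe sets (5.98 ± 0.10) and 5.96 ± 0.03 at the other. Both *ANXA9* margins were near -1.02 and -1.04. The limma adjusted p was 1 for both genes. Such values show that no signal was told apart from background on this array, not that the transcripts were absent.

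The median SD of the 7 annexin genes above background was 0.154, and that of all 5515 genes above background was 0.145. How these medians compare depended on single cultures, being 0.162 for the annexins and 0.0874 for all genes above background without culture 1, and 0.112 and 0.139 without culture 2. Apart from *ANXA5* and *ANXA3*, the other 5 genes had ranges from 0.16 (*ANXA2*) to 0.29 (*ANXA7*) at their brightest probe sets. The dimmer probe sets had ranges of 0.07 and 0.41 for *ANXA2*, 0.40 for *ANXA4*, 0.41 for *ANXA7* and 0.13 for *ANXA11*. At the brightest probe set, culture 1 was the lowest for 4 of the 7 (*ANXA2*, *ANXA3*, *ANXA4* and *ANXA5*), against 39.1% of all genes above background. It was also the lowest at the dimmer *ANXA7* probe set. The array of culture 1 stood somewhat apart as a whole. Over all probe sets its values had a Pearson's r of 0.988 and 0.987 with cultures 2 and 3, which had 0.994 with each other. The spiked-in poly-A controls, 24 probe sets, all read lowest on the array of culture 1, with medians of 5.44, 6.82 and 6.67 in cultures 1, 2 and 3. Their part in the low *ANXA5*, *ANXA3* and *ANXA4* values of culture 1 was not tested.

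Of the 14 genes listed as annexin partners and receptors, 8 were above background in the cultures (57.1%, beside 46.1% of all genes). *S100A10*, which joins ANXA2 in a tetramer, read 11.63, 11.66 and 11.72 in cultures 1, 2 and 3 (11.67 ± 0.05, SD, n = 3). *S100A11*, the S100 partner of ANXA1, read 9.24, 8.68 and 8.87 (8.93 ± 0.28), and *S100A6*, which binds ANXA11 and ANXA2, read 9.82, 10.23 and 10.49 (10.18 ± 0.34). Culture 1 was thus the highest for *S100A11* and the lowest for *S100A6*. The EF-hand genes *SRI*, encoding the sorcin that binds ANXA7, and *PDCD6*, encoding a partner of ANXA7 and ANXA11, had levels of 11.24 ± 0.14 and 9.58 ± 0.29. The scaffold gene *AHNAK*, whose large product is recruited to membranes by ANXA2 and S100A10, had 9.37 ± 0.32. The kinase genes *EGFR* and *SRC*, whose products phosphorylate ANXA1 and ANXA2 on tyrosine, had 8.66 ± 0.16 and 7.63 ± 0.20. *SRC* was the closest of these to background and was not above it with either stricter threshold. Without probe sets marked _x_at or _s_at, *SRI* and *EGFR* were read at other probe sets and were not above background, which left 6 of 12 measured partners.

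The 6 partner genes not above background were above it on 0 arrays each. They included the receptors through which secreted ANXA1 acts, *FPR1* (5.94 ± 0.07, SD, n = 3) and *FPR2* (4.45 ± 0.23). *PLA2G4A*, the cytosolic phospholipase that ANXA1 is known to inhibit, had a level of 4.47 ± 0.38. *PLAT*, encoding tissue plasminogen activator, had 6.55 ± 0.22, and *PLG*, encoding the plasminogen made mainly by liver, 4.83 ± 0.24. *S100A4*, an S100 partner of ANXA2, had 6.40 ± 0.05, and is also among the genes the study listed for their values on these arrays. The median distance of the 14 genes from the threshold was 1.14 log2 units.

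**Figure D4:**
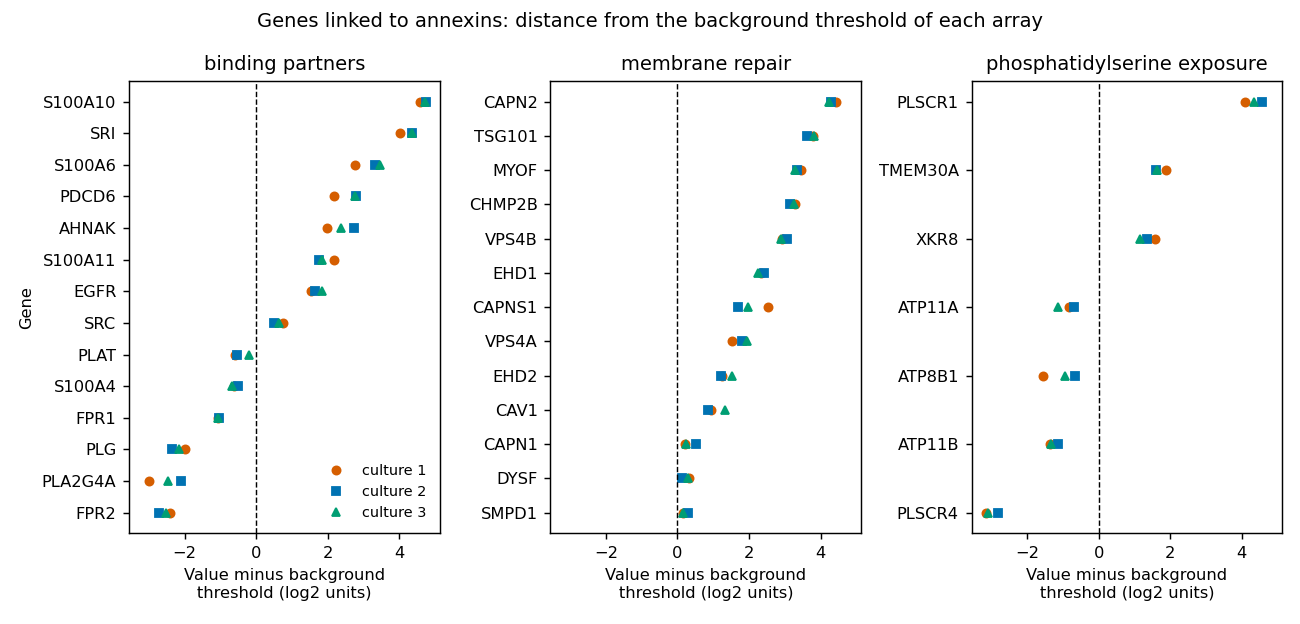
RMA value minus the background threshold of the array (log2 units, horizontal axis) for the measured genes of 3 lists (vertical axes), with cultures 1, 2 and 3 as circles, squares and triangles. The dashed line at 0 is the threshold. All 13 membrane repair genes lie to its right, as do 8 of 14 binding partners and 3 of 7 phosphatidylserine exposure genes.

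The measured genes of plasma membrane repair were all above background. In this process annexins seal the torn edge together with calpains and the ESCRT machinery. Of 18 listed genes 13 were measured, and all 13 exceeded the threshold on each array, beside 46.1% of all genes. *CAPN2*, a calpain gene, had a level of 11.33 ± 0.15 (SD, n = 3), the ESCRT gene *TSG101* 10.74 ± 0.18 and *MYOF*, encoding the dysferlin relative myoferlin, 10.37 ± 0.14. The median distance from the threshold was 2.06. In the limma test 12 of the 13 passed, beside 45.2% of all genes. The exception was the acid sphingomyelinase gene *SMPD1* (limma, adjusted p = 0.065). *SMPD1*, *DYSF* and *CAPN1*, named after their values were seen, lay within 0.32 of the threshold, and with either stricter threshold 10 of 13 were above it. Without probe sets marked _x_at or _s_at 9 of 11 were, and *MYOF*, then read at another probe set, was not. No share of all genes is given for these settings, so 46.1% is no comparison for these counts.

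Of 7 measured genes that govern the exposure of phosphatidylserine, the lipid bound by ANXA5, 3 were above background (42.9%, beside 46.1% of all genes), and 1 of 4 without probe sets marked _x_at or _s_at. These were the scramblase gene *PLSCR1* (11.33 ± 0.16, SD, n = 3), *TMEM30A*, encoding the flippase subunit that brings the enzyme to the membrane (8.71 ± 0.22), and *XKR8*, encoding a scramblase activated in apoptosis (8.35 ± 0.25). The flippase genes *ATP11A*, *ATP11B* and *ATP8B1* had levels of 6.12 ± 0.21, 5.73 ± 0.06 and 5.95 ± 0.40, above background on 0 arrays. The remaining one, *PLSCR4*, named after its values were seen, had 3.98 ± 0.10. None of the 3 genes above background had a range of 0.5 or more, beside 16.9% of all genes above background, and *XKR8* had 0.48. So few genes cannot show whether this list was steadier than all genes.

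The label of the cells was set beside marker genes. Several of them, such as *KRT3*, *KRT12*, *PAX6* and *EPCAM*, are among the genes the study listed for their values on these arrays. Their levels are therefore no independent check of the label. The study names *KRT7* and *KRT18* as keratins of simple epithelia. They and *KRT8*, *KRT19*, *EPCAM* and *CDH1*, the 6 genes of an epithelial list, were above background, from 10.24 ± 0.15 for *KRT8* to 12.58 ± 0.20 for *KRT18* (SD, n = 3). None of 6 measured markers of corneal and stratified epithelium was, with *KRT3* at 4.86 ± 0.10, *KRT12* at 5.26 ± 0.16 and *PAX6* at 6.83 ± 0.28, over the threshold on 1 array. The arrays therefore carried epithelial markers without the defining corneal keratins. No marker of keratocytes (5 measured), melanocytes (4), immune cells (5) or conjunctiva (5) was called above background. The keratocyte marker *PTGDS* (6.99 ± 0.15) was close, over the threshold on 2 arrays. Of 5 endothelial markers *TEK* alone was (7.24 ± 0.26), and it did not pass the limma test (adjusted p = 0.058). The general leukocyte marker *PTPRC* had a level of 5.12 ± 0.09, above background on 0 arrays.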

How the data were processed

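RNA of 3 iHCE cultures had been hybridized to Affymetrix arrays. The authors computed RMA values in R 2.8.0, per the submitters' processing notes, and the deposited table holds their log2. RMA removes differences in total brightness and compresses low values, so differences near background are understated. The study's methods describe RMA over these arrays and the corneal tissue arrays together, on re-annotated probes, but the deposited table keeps the manufacturer's probe sets. Whether it also came from a joint run, and the genome build, are not given in the sources used here. An array has no read depth, and 3 arrays limit the precision of each mean. Each array is 1 culture, so the SD covers culture and technical variation together.

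Probe sets were named by the platform annotation, with symbols updated through the RefSeq table of GRCh38.p14. Of them 19071 had 1 symbol, 1043 several and 2169 were not listed. A gene was read at the single-gene probe set with the highest mean, and every annexin probe set was kept. The threshold of each array was the 95th percentile of 57 measured genes of a 67-gene panel from other tissues. Margins over it were tested with limma 3.58.1 (one-sided, Benjamini-Hochberg over all genes, or over all single-gene probe sets). The step was run on simulated data in which all genes shared a common SD. Its behaviour with SDs that differ between genes, as in the real arrays, was not tested. Python 3.11.15 and pandas 2.3.3 did the rest.

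The named genes are all annexins and partners, the 3 largest margins and up to 3 genes not above background in the other lists, the 3 profiles closest to the annexin of widest range, and the markers. The members and lists were chosen with earlier results of these data known. Other thresholds, probe set rules, a further quantile normalization and leaving out each culture were tried.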

Additional observations from a re-analysis of the deposited data

How the results depend on the processing

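The 7 annexin genes above background, by the call on each array and by limma, stayed 7 of 9 in all alternatives except without _x_at and _s_at probe sets, where 5 genes were measured and 5 passed both. *ANXA2*, *ANXA6*, *ANXA9* and *ANXA11* have only such probe sets, so 5 annexin probe sets were then above background. The phosphatidylserine list then had 1 gene above background of 4 measured, the partners 6 of 12 and the membrane repair list 9 of 11. The share of all genes is not given here for the alternatives, so the 46.1% of the main setting is no comparison for these counts. The median SD of annexin genes lay between 0.112 and 0.200 over the alternatives, and that of all genes between 0.0874 and 0.152. Leaving out 1 culture gave 7 annexin genes above background each time. The number with a range of at least 0.5 then lay between 1 and 2, being 1 without replicate 1 and 1 without replicate 3, where *ANXA3* spanned 0.36 and 0.22. The levels of annexin genes moved by more than 1 SD in 5 of 77 cases, for *ANXA2*, *ANXA4*, *ANXA7* and *ANXA11*, and no call changed. No paired analysis was possible because there was only 1 group. Probe sets near background limit *ANXA6*, *ANXA9* and the dimmer *ANXA11* reading.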
